A study of Mus musculus with 12 samples.

Results

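The genes for the protein parts of the cytosolic ribosome were followed in single cells labelled as haematopoietic stem cells (HSC). Members were gene symbols that start with Rps or Rpl and a digit, together with Rpsa, Rplp0, Rplp1 and Rplp2. Of 99 symbols that start with Rps or Rpl, 17 were left out (symbols with "-ps", the Rps6k kinases, Rps19bp1, Rpl7l1 and Rpl22l1). This gave 82 members among 22307 symbols, 33 of the small and 49 of the large subunit, and 5 of them are extra copies of a standard gene (Rpl3l, Rpl39l, Rps27l, Rps27rt and Rpl36al). The rule reads the gene symbol alone. All 82 passed the filter on low counts, and 80 to 82 had a unique molecular identifier (UMI) on any one plate.

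The cells came from 3 sites of a lineage-tracing mouse line: the aorta-gonad-mesonephros region (AGM, 2 plates), fetal liver (5 plates) and bone marrow (5 plates). The labels give no age, genotype, treatment or sort markers for any group, and the tissue of bone marrow plates 4 and 5 stands in their titles alone. Cytoplasmic polyadenylated RNA was read by scSTRT-seq, which tags each cell's molecules with UMIs, after nuclei were held back on beads. Each plate carries an origin code: AGM has 1, fetal liver has 2 (plates 1 to 3, then 4 and 5), and bone marrow has 2 (plates 1 to 3, then 4 and 5). The labels do not say if a code stands for a single mouse, so p-values over plates measure only the spread between plates. All 12 plates use the same 96 well barcodes. Filters kept 1020 of 1152 wells (AGM 143, fetal liver 454, bone marrow 423), with 83152493 UMIs. Of 8 stem cell genes (Kit, Procr, Mecom, Hlf, Ly6a, Slamf1, Cd34 and Gfi1b), none was at 0 in any tissue, and their summed level was 1192 to 1222 counts per 1000000 UMIs (CPM) on AGM plates, 952 to 1109 in fetal liver and 1146 to 1520 in bone marrow. Summed CPM of 12 endothelial genes was 2314 to 2894 in AGM, 945 to 1088 in fetal liver and 387 to 627 in bone marrow, where Cdh5 and Plvap were at 0. The 10 erythroid genes summed to between 39.9 and 2160 CPM on fetal liver plates and to 139 to 413 CPM elsewhere; macrophage, lymphoid and hepatocyte genes stayed at or below 140 CPM on every plate.

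A ribosome joins a small subunit, which reads the messenger RNA, to a large subunit, which forms the peptide bonds. Each subunit is built from ribosomal RNA and from proteins that are mostly present once per particle, so their genes are among the most highly expressed of any growing cell. In mammals most of their messenger RNAs begin with a C followed by a run of pyrimidines (the 5′TOP motif), through which the mTOR pathway and the protein LARP1 control their translation and stability. Low rates of protein synthesis are a known property of adult HSC, and loss of 1 copy of certain ribosomal protein genes causes Diamond-Blackfan anaemia.

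The start sites show what the members share in sequence beyond the symbol rule. RefSeq promoter windows (GRCm38.p6, 250 bases before to 50 after each annotated start) were at hand for 62 members, with 74 starts. A C followed by at least 5 bases that are each C or T, beginning within 15 bases of the start, stood on the transcribed strand in 37 of 74 member windows, against 25.1% of all 32851 windows. On the other strand it stood in 9 of 74 member windows and 28.7% of all windows. The letters CCGGAAG, the core of sites bound by ETS-family factors, stood on either strand in 27 of 74 member windows, against 8.86% of all, and on the reverse strand they can overlap a pyrimidine run. TATAAA stood on the transcribed strand in 5 of 74 member windows and 8.32% of all, and on the other strand in 2 of 74 and 6.95%.

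The windows below run from 10 bases before the start to 19 after the start base, 5′ to 3′ on the transcribed strand, with the pyrimidine run in capitals. They show Rps27 beside its copies Rps27rt and Rps27l, the copies Rpl36al and Rpl39l, and 3 standard genes that return below.
Rps27 (chr3:90213629-90213658, minus strand): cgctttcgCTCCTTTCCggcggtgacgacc
Rps27rt (chr9:114982720-114982749, minus strand): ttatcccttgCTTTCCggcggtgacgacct
Rps27l (chr9:66946076-66946105, plus strand): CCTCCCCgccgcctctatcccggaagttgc
Rpl36al (chr12:69184048-69184077, minus strand): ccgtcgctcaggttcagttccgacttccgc
Rpl39l (chr16:10170218-10170247, plus strand): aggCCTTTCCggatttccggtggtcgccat
Rps3a1 (chr3:86142649-86142678, minus strand): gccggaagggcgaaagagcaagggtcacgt
Rps6 (chr4:86857348-86857377, minus strand): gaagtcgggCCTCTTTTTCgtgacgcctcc
Rpl35 (chr2:39005112-39005141, minus strand): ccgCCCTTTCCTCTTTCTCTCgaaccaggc
Rpl36al and Rps3a1 have no such run within 15 bases of the start. Rps27l has another annotated start, also without one.

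The family took 17182212 UMIs, 20.7% of all. The plate median of its share per cell was 16.3% and 17.4% in AGM. In fetal liver plates 1 to 5 it was 22.4%, 25.4%, 24.6%, 22.6% and 29.5%, and in bone marrow plates 1 to 5 it was 22.2%, 25.6%, 23.0%, 35.8% and 32.8%. Both AGM plates were below all 10 others, whereas fetal liver and bone marrow overlapped. AGM averaged 16.9% ± 0.762 (SD, n = 2), fetal liver 24.9% ± 2.88 (SD, n = 5), and bone marrow 27.9% ± 6.10 (SD, n = 5). Fetal liver was 8.04 percentage points above AGM (exact permutation test over plates, two-sided, p = 0.0476, the smallest that 2 against 5 allows, and 0.143 after Benjamini-Hochberg adjustment over 3 comparisons). Bone marrow was 11.01 points above AGM (exact p = 0.0952, adjusted 0.143) and 2.97 points above fetal liver (exact p = 0.317). None passed the adjustment. Over origin codes instead of plates no exact permutation test could go below p = 0.333. By code, the family took 15.3% of summed UMIs in AGM. The fetal liver codes had 22.1% and 22.7%, and the bone marrow codes 21.6% and 30.6%. Without fetal liver plate 5, whose departures in single members are described below, fetal liver was 6.89 points above AGM and 4.13 points below bone marrow.

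Depth per cell moved with the family share everywhere. The median number of UMIs per cell was 155534 and 165904 on the AGM plates, 35267 to 75735 in fetal liver and 29964 to 92658 in bone marrow. Bone marrow plates 4 and 5, with the largest family shares, had 29964 and 38944 UMIs per cell, and only fetal liver plate 5 (35267) was as shallow. Within plates, Spearman's rho between a cell's family share and its UMIs ran from -0.942 to -0.577 (median -0.863) and was below 0 on 12 of 12 plates. These correlations are across cells of 1 plate and share the cell's total on both sides. On log2 axes family UMIs grew with total UMIs with a slope of 0.536 to 0.806 (median 0.704), where 1 would be a constant share. The 82 most abundant genes outside the family had slopes of 0.689 to 0.962 (median 0.879), and all remaining genes 1.09 to 1.20. The highest count of any gene in a cell was 981 UMIs, and plate medians of a cell's highest gene were 238 to 559 UMIs. What sets these slopes was not tested.

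**Figure D1:**
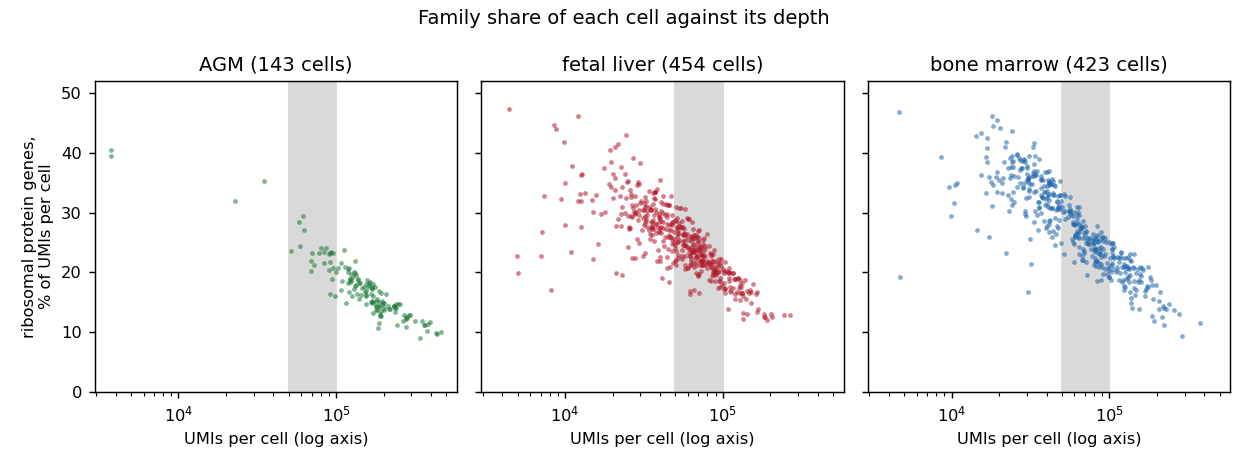
Percent of UMIs from the 82 ribosomal protein genes (y axis) against UMIs per cell (log x axis), 1 point per kept cell, by tissue. The grey band marks cells of 50000 to 100000 UMIs. The y axis ends below the highest shares, such as 57.2% on bone marrow plate 5, and such points are not drawn. In each tissue the share falls as depth grows, and few of the 143 AGM cells lie in or below the band.

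Cells were then compared at like depth, a choice made after the dependence on depth was seen. Between 50000 and 100000 UMIs there were 24 AGM, 185 fetal liver and 133 bone marrow cells. The plate medians of the family share there were 23.3% and 23.1% in AGM. They were 21.8%, 23.1%, 24.4%, 23.7% and 23.7% in fetal liver plates 1 to 5, and 25.2%, 25.8%, 25.5%, 26.4% and 25.8% in bone marrow plates 1 to 5. All bone marrow plates, of both origin codes, lay above all others, and AGM lay within fetal liver. Bone marrow plate 4 rests on 5 cells, and median depth within the range was still highest in AGM (83787 and 86488 UMIs, against 63211 to 72329 in fetal liver and 58713 to 81204 in bone marrow). Bone marrow exceeded fetal liver by 2.38 points (exact permutation test, p = 0.00794, adjusted 0.0238 over the 3 comparisons, and the smallest p that 5 against 5 allows). It exceeded AGM by 2.55 points (exact p = 0.0476, adjusted 0.0714), and fetal liver differed from AGM by 0.177 points (exact p = 0.762).

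Other depths were compared in the same way. Between 3000 and 25000 UMIs the 4 bone marrow plates with enough cells had 33.4% to 38.4% and the 4 fetal liver plates 25.5% to 35.5%, and they overlapped. Between 25000 and 50000 UMIs plate medians averaged 33.1% in bone marrow and 28.8% in fetal liver, without overlap (exact p = 0.00794, adjusted 0.0278 over 7 comparisons in 3 depth ranges). Between 100000 and 200000 UMIs bone marrow averaged 20.6%, fetal liver 17.1% and AGM 17.4%. The 3 bone marrow plates with enough cells did not overlap the others there, but an exact test of 3 plates against 3 cannot go below p = 0.1. All 3 were of origin code 1. Of code 2, bone marrow plate 4 had 17.0% (1 cell) and plate 5 had 14.9% (3 cells), not above the other tissues. Above 200000 UMIs 2 AGM plates had 12.6% and 13.6% (35 cells), and 2 bone marrow plates had 13.7% and 14.0% (10 cells). No test was made at that depth. A line of share on log2 UMIs within each plate, read at 70000 UMIs, put AGM at 23.0% ± 0.607 (SD, n = 2), fetal liver at 23.1% ± 0.891 (SD, n = 5), and bone marrow at 26.7% ± 1.61 (SD, n = 5). The last pair differed by 3.61 points (exact p = 0.00794, adjusted 0.0238).

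**Figure D2:**
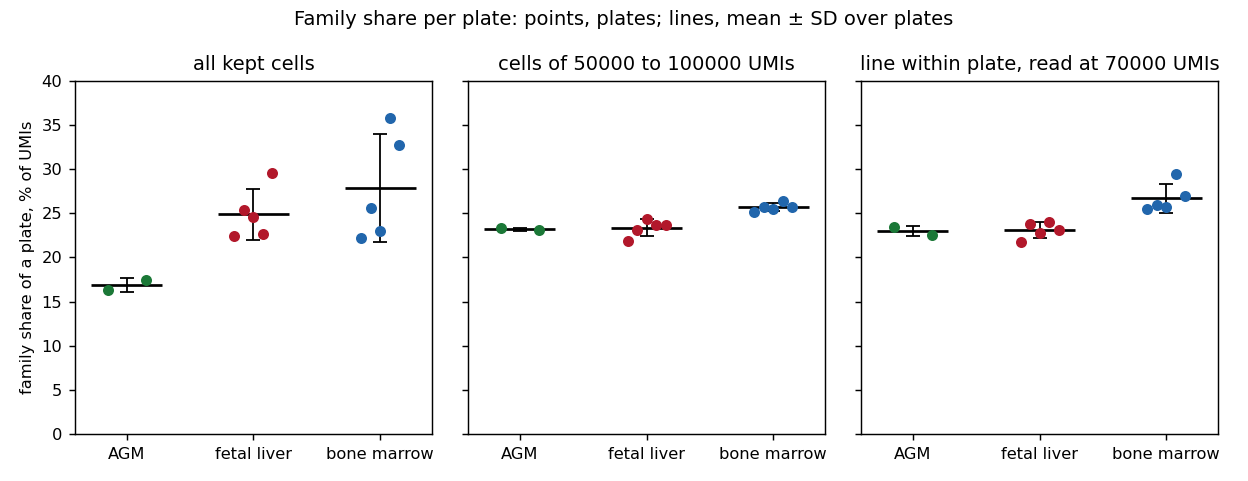
Family share per plate in percent of UMIs (points), with mean ± SD over plates (lines), for all kept cells, for cells of 50000 to 100000 UMIs, and for a line within each plate read at 70000 UMIs. AGM is lowest over all cells (16.9%), and at like depth AGM and fetal liver sit together near 23% with bone marrow above.

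Other measures also moved with tissue, and their part in these shares was not tested. At 50000 to 100000 UMIs the plate median of genes detected per cell was 1957 to 3100 in bone marrow, 3947 to 5560 in fetal liver and 4375 to 4529 in AGM. Over all kept cells, of unequal depth, the nuclear RNA Malat1 was at 1686 to 2463 CPM on fetal liver plates and 3384 to 4069 CPM in bone marrow. The log2 difference was 1.02 ± 0.21 (edgeR, adjusted p = 0.00602). Summed CPM of 23 genes of S, G2 and M phase, also over all kept cells, was 4654 to 4923 in AGM. It was 2995 to 3395 in fetal liver and 1564 to 2069 in bone marrow. With depth taken out by ranks, family share and cell cycle share of a cell had correlations of -0.522 to 0.0425, below 0 on 11 of 12 plates.

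Member by member, 59 of 82 passed as higher in bone marrow than in AGM at the scale of all genes (edgeR, TMM, Benjamini-Hochberg over 15472 genes) and 0 as lower; over all genes 5.29% were called higher and 3.63% lower. AGM enters this fit as 1 library, so its own spread was not measured and was taken from the other tissues. Their log2 differences ran from 0.92 to 1.34. For fetal liver against AGM 0 members passed, against 2.92% of genes called higher and 1.91% lower; 73 had an unadjusted p under 0.05, all higher, and DESeq2 called 21. For bone marrow against fetal liver 0 passed, against 2.68% and 2.06%; 3 had an unadjusted p under 0.05 (2 higher, 1 lower), and DESeq2 called 0. The median log2 difference of the members was 0.77, 0.27 and 1.05 for fetal liver against AGM, bone marrow against fetal liver and bone marrow against AGM, beside 0.047, 0 and 0.037 over all genes. Rpl3l, at 0 in 2 tissues, leaves these medians as they are when it is set at its bound.

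Rps29, a zinc-binding protein of the small subunit head and the most abundant member, had 2965 and 2986 CPM on the AGM plates. In fetal liver it had 4678, 5597, 4921, 4282 and 6481 CPM. The bone marrow plates had 4704, 5008, 4418, 8194 and 6917 CPM. Both AGM plates lay below all others, with a log2 difference of 1.34 ± 0.32 (adjusted p = 0.0101) for bone marrow against AGM. On CPM, 76 members had all bone marrow plates above both AGM plates (8.16% of all genes do) and 78 had all fetal liver plates above them (8.40%). Rps27l was the 1 member with all bone marrow plates below both AGM plates on CPM (20.5% of all genes). At the TMM scale its log2 difference for bone marrow against AGM was 0.12 ± 0.24 (edgeR, adjusted p = 0.822), so no fall was seen there. On CPM Rps27l was also the 1 member with all bone marrow plates below all fetal liver plates (4.60%). On CPM 0 members had bone marrow above fetal liver (3.08%) and 0 had fetal liver below AGM (20.6%).

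The calls depended on depth and on single plates. In cells of 50000 to 100000 UMIs 0 of 81 tested members were called in any comparison, beside 1.48% of genes called higher and 1.11% lower in bone marrow against AGM, 0.769% and 0.385% in fetal liver against AGM, and 0.315% and 0.385% in bone marrow against fetal liver. For bone marrow against AGM 26 members had an unadjusted p under 0.05, 25 of them higher, and the smallest adjusted p was 0.0539, of Rps29. The median log2 difference of the members was then 0.19 for bone marrow against AGM, 0.079 for fetal liver against AGM and 0.10 for bone marrow against fetal liver, beside 0.16, 0.26 and -0.062 over all genes. Without fetal liver plate 4, which enters through the shared estimate of the spread, 0 members were called in bone marrow against AGM, but their median log2 difference stayed at 1.02 and 64 had an unadjusted p under 0.05, all higher. The count of calls was 40, 34 and 31 without fetal liver plate 5, 2 or 3, and 27 and 23 without bone marrow plate 2 or 5. Without an origin code of fetal liver or bone marrow, that tissue keeps 1 library. The spread then comes from the other tissue with 2 codes, so here only effect sizes are given for these fits. Without fetal liver code 1 or 2 the median for bone marrow against AGM was 1.04 and 1.05. Without bone marrow code 2 it was 0.65, and without code 1 it was 1.36. For bone marrow against fetal liver the bone marrow codes went opposite ways. Without code 1 the median was 0.60. Without code 2 the median turned to -0.12, with 11 of 82 members above 0. Without fetal liver plate 4 the median was 0.038.

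**Figure D3:**
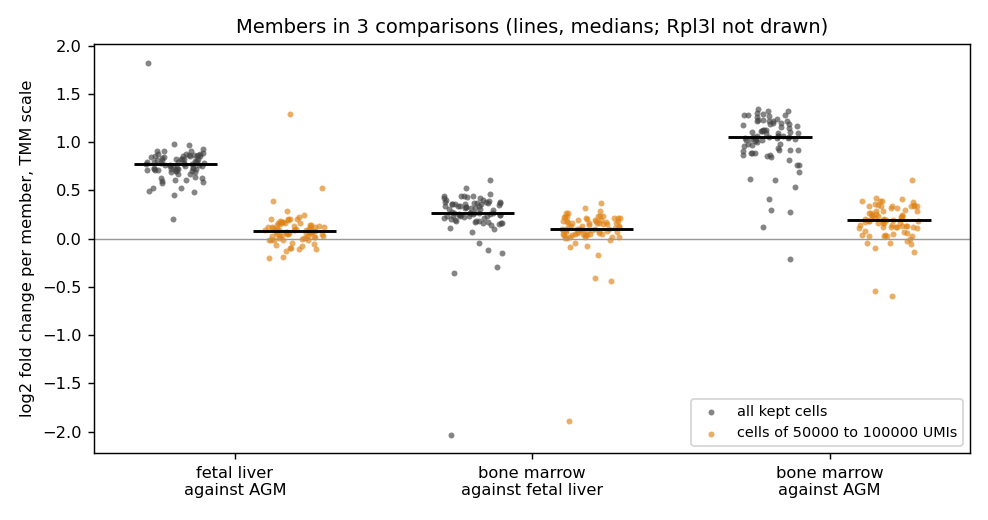
Log2 fold change of each member at the TMM scale (y axis) in the 3 comparisons, for all kept cells (grey) and for cells of 50000 to 100000 UMIs (orange); lines are medians and Rpl3l is not drawn. The median for bone marrow against AGM is 1.05 over all cells and 0.19 at like depth.

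Set against the family sum instead, the question is which member moved apart from the rest. With family UMIs as the library size 0 members were called in any comparison, over all cells or in cells of 50000 to 100000 UMIs. Over all cells the prior degrees of freedom of this fit came out infinite, so no gene kept a spread of its own and each adjusted p rests on the spread shared over genes. Of all genes over all cells, 1.0% were called higher and 4.04% lower in fetal liver against AGM, 0.931% and 1.58% in bone marrow against fetal liver, and 1.70% and 10.9% in bone marrow against AGM. At 50000 to 100000 UMIs the same shares were 0.715% and 0.462%, 0.285% and 0.592%, and 1.25% and 1.53%. This scale shifts the median of all genes to -0.70, -0.18 and -0.90. Over all cells, at an unadjusted p under 0.05 stood 0, 4 and 2 members, and DESeq2 called 0. The smallest adjusted p was 0.0579, of Rpl29 in bone marrow against AGM. Relative to the sum 80, 78 and 76 members stayed within 0.5 on the log2 scale.

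The make-up of the family was alike on all plates. Small subunit members took 43.0% to 44.5% of family UMIs, and 71 to 74 members were among the 100 most abundant genes of each plate. Spearman's rho of the member profiles between plates was 0.953 to 0.996 for plates of 1 origin code, 0.969 to 0.984 for other plates of 1 tissue, and 0.933 to 0.986 between tissues. The share of family UMIs that would have to change member to make 1 plate like another was 1.09% to 4.51% within an origin code. It was 2.33% to 3.83% for other plates of 1 tissue and 2.42% to 6.10% between tissues. Members with large mean shares included Rps29 (2.21%, the largest), Rpl32 (1.88%), Rpl13 (1.85%), Rps27 (1.83%) and Rps19 (1.81%). The standard genes with the smallest were Rpl23a (0.260%), Rpl35 (0.550%) and Rps6 (0.580%). A UMI tags 1 molecule, so shares were not divided by transcript length.

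In Rpl29 and Rps3a1 the bone marrow share of family UMIs overlapped neither other tissue, over all cells or at 50000 to 100000 UMIs. The same held for Rpl21, Rpl30 and Rps14. Rpl29 and Rps3a1 were singled out after their values were seen. Rpl29 (chr9:106429454-106431568, plus strand), a large subunit protein whose loss in mice reduces growth, took 1.05% and 1.06% of family UMIs in AGM. It took 0.891%, 0.886%, 0.897%, 1.04% and 0.835% in fetal liver and 0.530%, 0.576%, 0.603%, 0.604% and 0.687% in bone marrow. No bone marrow plate reached any other plate. The log2 difference relative to the sum was -0.80 ± 0.30 (adjusted p = 0.0579) for bone marrow against AGM and -0.61 ± 0.25 (adjusted p = 0.266) for bone marrow against fetal liver. In cells of 50000 to 100000 UMIs the shares were 1.09% and 1.13% in AGM, 0.890% to 1.05% in fetal liver and 0.458% to 0.862% in bone marrow, again without overlap. The bone marrow codes differed there: plates 1 to 3 had 0.458%, 0.537% and 0.538%, whereas plate 4 (5 cells) and plate 5 had 0.862% and 0.796%, close to the lowest fetal liver plate.

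Rps3a1 (chr3:86137940-86142702, minus strand), a small subunit protein near the messenger RNA exit, was highest in bone marrow. Its shares were 1.22% and 1.18% in AGM, and 1.16%, 1.19%, 1.18%, 1.16% and 1.08% in fetal liver. In bone marrow they were 1.40%, 1.43%, 1.42%, 1.46% and 1.44%, above every other plate. The log2 difference relative to the sum was 0.31 ± 0.22 (adjusted p = 0.690) for bone marrow against fetal liver and 0.25 ± 0.28 (adjusted p = 0.575) for bone marrow against AGM. At 50000 to 100000 UMIs bone marrow had 1.38% to 1.44%, fetal liver 1.15% to 1.23% and AGM 1.20% and 1.24%.

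Reads from near-identical genes bear on both. Of the 50-base stretches of the principal Rpl29 transcript in GENCODE M21, 66.2% also occur in transcripts of other genes, and 71.0% of those of Rps3a1. Of 82 genes that share stretches with Rpl29 1 is in the count tables, at no more than 0.00301% of family UMIs on any plate, and of 9 that share with Rps3a1 none is. How the counting treated reads that fit several genes is not given in the sources used here. Over all members the share of such stretches ran from 0% (in Rpl39l and Rpl3l, for example) to 98.6% (Rps27), with a median of 43.9%.

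Counted over all members, 11 had all bone marrow plates above all fetal liver plates in their share of family UMIs, where 1.64% of all genes do, and 9 had them below (4.08%). For bone marrow against AGM 24 were above (3.68%) and 25 below (35.4%), and for fetal liver against AGM 18 above (3.87%) and 17 below (37.4%). In cells of 50000 to 100000 UMIs, 4 members stood above and 6 below for bone marrow against fetal liver, where 1.12% and 4.21% of all genes do. At that depth 16 members stood above and 13 below for fetal liver against AGM (11.1% and 8.89% of all genes), and 15 and 15 for bone marrow against AGM (4.45% and 10.3%). The 4 were among the 11: Rpl21, Rpl30, Rps14 and Rps3a1. Of the 6, Rpl15, Rpl29 and Rpl31 were among the 9.

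Fetal liver plate 5 departed in single members, a pattern noticed after the values were seen. Rps2 (chr17:24718116-24721929, plus strand), a small subunit protein at the messenger RNA entry, took 1.32% and 1.27% of family UMIs in AGM and 1.25%, 1.24%, 1.20%, 1.15% and 0.317% in fetal liver. On the bone marrow plates it took 1.06%, 1.04%, 1.03%, 0.990% and 0.969%. Fetal liver plate 5 was thus 1.86 below the median of the other plates on the log2 scale. The departure ran through the plate: the median cell had 0.274% and the highest of its 89 cells 0.737%, whereas the median cell of plate 4, of the same origin code, had 1.15%. At 50000 to 100000 UMIs plate 5 still had 0.377%. On that plate 14 members lay above and 14 below the range of all other plates, and on bone marrow plate 4, the shallowest, 14 and 17 did. Apart from Rps2, the largest of these departures on plate 5 were Rps27rt (1.27 on the log2 scale) and Rpl35 (0.50). Rps2 shares 71.3% of its 50-base stretches with transcripts of 71 other genes. What sets plate 5 apart was not tested.

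The shares also varied with depth by member. For the 80 members other than Rpl3l and Rpl39l, on plates where more than 50% of cells had a UMI, the slope of log2 share of family UMIs on log2 UMIs of the cell was set against their mean share. The rank correlation was -0.938, a description over members that share cells. Less abundant members took a larger share in deeper cells: the slope was 0.53 for Rpl23a, 0.47 for Rps27l, 0.44 for Rpl36al, 0.35 for Rps6 and 0.32 for Rpl29. Abundant members took a smaller one, with -0.18 for Rps27, -0.15 for Rps29 and -0.10 for Rpl32. Cells without a UMI of the member were left out of its slope. The log2 differences relative to the sum followed the slopes, with rank correlations of -0.759, -0.488 and -0.751 for fetal liver against AGM, bone marrow against fetal liver and bone marrow against AGM. Differences of low members between tissues of unequal depth therefore stand beside this gradient, and its part in them was not tested.

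**Figure D4:**
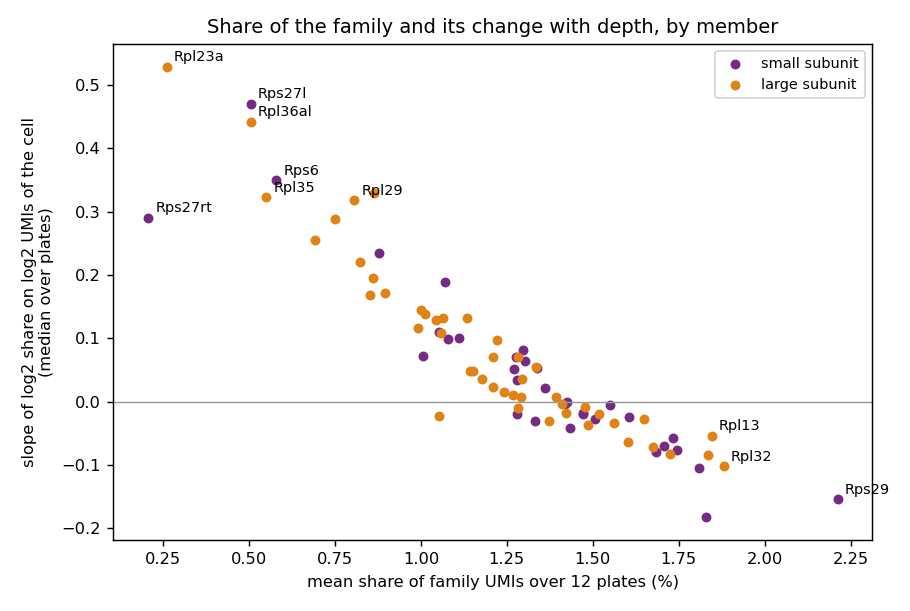
Slope of log2 share of family UMIs on log2 UMIs of the cell (y axis, median over plates) against mean share of family UMIs in percent (x axis), 1 point per member, by subunit. Rpl23a, Rps27l and Rpl36al lie highest at low shares, and Rps29 has the largest share with a slope below 0.

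Among the standard genes by role, the P stalk comes first, the flexible arm of the large subunit that recruits translation factors. Rplp0, its base, had 1.61% and 1.61% of family UMIs in AGM, 1.47% to 1.61% in fetal liver and 1.41% to 1.55% in bone marrow. Rplp1 had 1.49% and 1.45% in AGM, 1.43% to 1.65% in fetal liver and 1.67% to 1.82% in bone marrow, where all plates lay above the others. For Rplp2 the shares were 1.56% and 1.56%, 1.601% to 1.68%, and 1.64% to 1.74%. At the TMM scale Rplp1 (log2 1.29 ± 0.31, adjusted p = 0.00913) and Rplp2 (1.20 ± 0.31, adjusted p = 0.0170) rose in bone marrow against AGM, and Rplp0 did not pass (0.94 ± 0.30, adjusted p = 0.0593).

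Rpl38, Rps25 and Rpl10a are known from work on the translation of particular messenger RNAs; Rpl38 is needed for normal axial patterning in mice. Rpl38 took 1.35% and 1.36% in AGM, 1.37% to 1.45% in fetal liver and 1.43% to 1.48% in bone marrow. Rps25 took 0.950% and 0.997%, 0.731% to 0.940%, and 0.819% to 0.885%. The shares of Rpl10a were 1.03% and 1.04%, 0.989% to 1.05%, and 0.908% to 1.05%. Rpl38 and Rpl10a rose in bone marrow against AGM at the TMM scale (1.19 ± 0.30, adjusted p = 0.0149, and 0.96 ± 0.28, adjusted p = 0.0366), and Rps25 did not pass (0.88 ± 0.29, adjusted p = 0.0597).

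Of 19 ribosomal protein genes mutated in Diamond-Blackfan anaemia, 14 were called higher and 0 lower in bone marrow against AGM at the TMM scale, with a median log2 difference of 1.05, near the 59 of 82 and 1.05 of the whole family. Relative to the sum 0 were called. The largest values there for bone marrow against AGM were Rps29 (0.25 ± 0.24, adjusted p = 0.508) and Rps27 (0.19 ± 0.25, adjusted p = 0.651), and the lowest Rpl35 (-0.49 ± 0.34, adjusted p = 0.339) and Rpl15 (-0.44 ± 0.30, adjusted p = 0.334). Rps19, the gene most often mutated in the disease, took 1.72% and 1.74% of family UMIs in AGM, 1.68% to 1.91% in fetal liver and 1.74% to 1.93% in bone marrow.

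Among the extra copies, Rps27l, a copy of Rps27 that is known as a target of p53, had 0.678% and 0.674% of family UMIs in AGM. In fetal liver it had 0.599%, 0.512%, 0.650%, 0.518% and 0.518%, and in bone marrow 0.473%, 0.412%, 0.437%, 0.260% and 0.326%. The 3 tissues did not overlap. At 50000 to 100000 UMIs the shares were 0.403% and 0.526% in AGM, 0.509% to 0.601% in fetal liver and 0.306% to 0.515% in bone marrow, and bone marrow overlapped both. The log2 difference relative to the sum was -0.88 ± 0.34 (adjusted p = 0.0666) for bone marrow against AGM. Rps27 itself, the standard gene, had 1.69% and 1.65%, 1.62% to 1.98%, and 1.73% to 2.01%.

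Rps27rt, an intronless copy of Rps27, had 0.230% and 0.227% in AGM, 0.160%, 0.162%, 0.168%, 0.143% and 0.406% in fetal liver, and 0.192%, 0.224%, 0.224%, 0.169% and 0.166% in bone marrow. Fetal liver plate 5 stood apart at 1116 CPM, where the highest other plate had 561 CPM. At 50000 to 100000 UMIs AGM had 0.146% and 0.124%, fetal liver plates 1 to 4 0.134% to 0.173%, fetal liver plate 5 0.427% and bone marrow 0.145% to 0.226%, so AGM no longer lay above the other fetal liver plates. Its transcript shares 91.1% of its 50-base stretches with other genes, foremost Rps27. Rpl36al, a retrocopy of Rpl36a, took 0.610% and 0.660% in AGM, 0.474% to 0.584% in fetal liver and 0.319% to 0.534% in bone marrow. In cells of 50000 to 100000 UMIs it took 0.512% and 0.562% in AGM, 0.483% to 0.590% in fetal liver and 0.417% to 0.554% in bone marrow, and all 3 tissues overlapped. Its parent Rpl36a took 1.24% and 1.24%, 1.13% to 1.24%, and 1.17% to 1.24%.

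**Figure D5:**
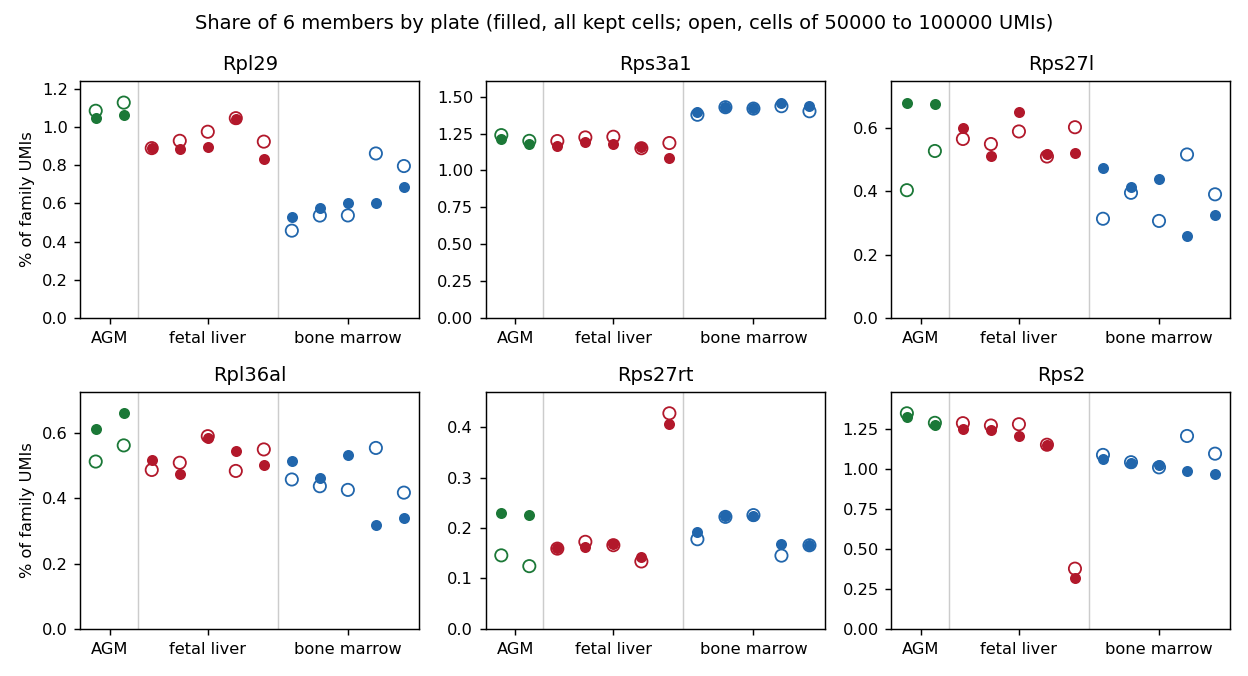
Percent of family UMIs (y axis, from 0) of Rpl29, Rps3a1, Rps27l, Rpl36al, Rps27rt and Rps2 on each plate (x axis, by tissue), for all kept cells (filled) and cells of 50000 to 100000 UMIs (open). Rpl29 is lowest and Rps3a1 highest on the 5 bone marrow plates in both sets, and fetal liver plate 5 stands apart for Rps27rt (0.406%) and Rps2 (0.317%).

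Rpl39l and Rpl3l, known from testis and from striated muscle, had the smallest shares of all members. Rpl39l had 175 UMIs in 19 of 143 AGM cells, all on plate 1, 633 UMIs in 105 of 454 fetal liver cells and 251 UMIs in 17 of 423 bone marrow cells, of which 1 cell held 70.1%. Its plate levels were 10.95 and 0 CPM in AGM, 11.002 to 48.5 CPM on fetal liver plates, and 0 to 18.1 CPM on bone marrow plates, which overlap. After thinning to 20000 UMIs, 4.26% of 141 AGM cells had a UMI, as did 12.2% of 419 cells from fetal liver and 2.55% of 392 from bone marrow. The unthinned shares were 13.3%, 23.1% and 4.02%. The standard gene Rpl39 took 1.21% to 1.37% of family UMIs on every plate. Rpl3l, the 1 member under 5 CPM in every tissue, had 94 UMIs in 4 bone marrow cells of plate 1, 96.8% of them in 1 cell, and 0 UMIs elsewhere. A count of 0 allows up to 3 UMIs per tissue. Rpl3 took 1.05% and 1.06% in AGM, 0.844% to 1.01% in fetal liver and 1.01% to 1.07% in bone marrow.

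Cell to cell, the variance of a member's share given the cell's family UMIs was compared with that of random draws, where the ratio is 1. Among members of at least 50 CPM the ratio (median over plates) was largest for Rps27l (18.4), Rpl36al (13.9), Rpl23a (11.2), Rpl29 (7.96) and Rpl12 (7.65). It was smallest for Rps28 (2.68), Rps23 (2.83) and Rpl37a (2.87). With the rest of the family, a member's share of the cell's UMIs had a within-plate rank correlation whose median over members was 0.792, and 69 of 82 were above 0.5. Rps27l (-0.154), Rpl23a (-0.0190) and Rpl36al (-0.00613) did not follow the family, and a cell's depth enters all these values.

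Beyond the symbol rule, Fau encodes a ribosomal protein fused to a ubiquitin-like protein, and Rack1 sits on the small subunit. Fau was at 1860 and 1871 CPM in AGM, 2441 to 3551 in fetal liver and 2474 to 4261 in bone marrow, and rose in bone marrow against AGM (log2 1.11 ± 0.31, adjusted p = 0.0258). Rack1 (0.67 ± 0.26, adjusted p = 0.126) did not pass. Of 1757 genes outside the family with at least 100 CPM, those whose CPM ranked cells most like the family share within plates were Eef1a1 (median rho over 12 plates 0.851), Gm10076 (0.848), Fau (0.772), Gm42418 (0.710) and Gas5 (0.558). By plate, rho ran from -0.0014 to 0.962 for Eef1a1, 0.663 to 0.951 for Gm10076 and 0.543 to 0.944 for Fau. For Gm42418 it ran from 0.346 to 0.854, and for Gas5 from 0.266 to 0.851. Eef1a1 is translation elongation factor 1 alpha, and Gm10076 shares sequence with Rpl41. These rankings share depth with the family share.

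Related gene groups were counted from lists in the same TMM fit. Over all genes 5.29% were called higher and 3.63% lower in bone marrow against AGM, 2.92% and 1.91% in fetal liver against AGM, and 2.68% and 2.06% in bone marrow against fetal liver. Several of the list counts lie near these shares. Of 28 translation factors and other genes with 5′TOP messenger RNAs, 2 rose and 1 fell in bone marrow against AGM (median log2 0.22), 0 and 1 changed so in fetal liver against AGM, and 0 in bone marrow against fetal liver. Of 36 ribosome biogenesis genes, 1 rose in bone marrow against fetal liver and none was called in the other comparisons (median -0.12 in that comparison). Of 78 mitochondrial ribosomal proteins, 1 rose and 4 fell in bone marrow against AGM, and 3 fell in bone marrow against fetal liver (medians -0.26 and -0.35). The 82 most abundant genes outside the family had 17 calls higher and 0 lower in bone marrow against AGM (median 0.36). They had 7 higher in fetal liver against AGM (median 0.50). This list was taken from these same data, by mean CPM over the 12 plates (2 of AGM), without genes of the mitochondrial genome. Such a choice can favour genes that are higher outside AGM.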

How the data were processed

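The deposited tables hold UMI counts per gene symbol and well, without normalization, as deposited by the authors. The submitters' processing notes name mm10, featureCounts, UMI-tools and SAMtools. Their versions, the annotation and the treatment of reads that fit several genes were not given in the sources used. Wells with at least 1000 genes, 3000 UMIs and under 20% mitochondrial UMIs were kept. Counts were summed over origin codes (5 libraries) and tested with edgeR 4.0.16 in R 4.3.3 (quasi-likelihood, filterByExpr, 1 model, call at an adjusted p under 0.05), with TMM scaling or with the summed family UMIs as library size. AGM has 1 library, and its spread was taken from the others. An error after a log2 difference is that difference divided by the square root of F. Family shares were compared over plates by exact permutation of plate medians, two-sided. DESeq2 1.42.0 and other alternatives are given at the end. The scripts were tested on simulated data. Named members are those of the largest mean share, the largest and smallest variance among cells, extra copies and fixed role lists; none was called relative to the sum. Rps3a1, Rps2 and the members of the counts without overlap were named after their values were seen. Some that the rule names are not reported here. The members and lists were chosen with earlier results of these data known. Promoters come from RefSeq GRCm38.p6, and positions and transcripts from GENCODE M21 (GRCm38, the same build as mm10).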

Additional observations from a re-analysis of the deposited data

Results flagged for a closer look

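Among 56 sets of 5 plates looked at for a plate far from the rest, 4 held one, and chance alone gives about 1 in 20. The sets covered the family share and a chosen part of the 82 members, and most members were not looked at. Rps2 was not among them, so its 0.317% on fetal liver plate 5 is not in this count. Rps27rt took 0.406% of family UMIs on fetal liver plate 5 and 0.143% to 0.168% on the other 4 fetal liver plates. Rpl12 took 0.967% on fetal liver plate 4, where the others had 0.721% to 0.773%. Rpl10a took 1.05% on the same plate, against 0.989% to 0.9995%. Rpl23a took 0.213% on fetal liver plate 2, against 0.249% to 0.262%.

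Wells with under 1000 UMIs entered no comparison, and the family took part of their few UMIs. The family share of their summed UMIs was 39.5% on AGM plate 2 (48 wells, 1877 UMIs) and 47.1% on bone marrow plate 3 (24 wells, 397 UMIs). In fetal liver it was 22.9% on plate 1, 27.3% on plate 3, 20.6% on plate 4 and 36.7% on plate 5, and on bone marrow plates 4 and 5 it was 23.2% and 23.3%.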

How the results depend on the processing

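No paired analysis was possible because replicate numbers were given in accession order and pair nothing. Family share: with summed UMIs, without mitochondrial UMIs, with stricter or looser cell filters and without extra copies, all 3 differences kept their direction and stayed short of the threshold. At like depth, bone marrow against fetal liver passed, at 2.38 points in cells of 50000 to 100000 UMIs and at 3.61 points on the line at 70000 UMIs. With 1 plate left out the differences were 6.89 to 8.67 points for fetal liver against AGM, 0.977 to 4.40 for bone marrow against fetal liver and 9.02 to 12.4 for bone marrow against AGM. Members called at the TMM scale in bone marrow against AGM numbered 59 in the main setting. They were 71 with DESeq2, 69 without the filter on low counts, 66 with each plate as a library and 49 with the stricter cell filter. They were 37 with upper-quartile scaling, 39 with each cell thinned to 3000 UMIs and 0 in cells of 50000 to 100000 UMIs. With 1 plate left out they were 0 to 62. They were 0 without fetal liver plate 4, 27 and 23 without bone marrow plate 2 or 5, and 34 and 31 without fetal liver plate 2 or 3. Fits without an origin code leave 1 library in that tissue, so their calls are not counted in the 0 to 62. Later ranges that name a code include such fits, and counts from them are not evidence of a change. With only single plates left out, calls relative to the sum were 0 to 1 in fetal liver against AGM. They were 0 in bone marrow against fetal liver and 0 to 2 in bone marrow against AGM. Members called at the TMM scale with only single plates left out numbered 0 to 1 in fetal liver against AGM and 0 in bone marrow against fetal liver. In fetal liver against AGM (0) they were 21 with DESeq2, 18 without the filter, 5 with each plate as a library, 1 with thinning, and 0 to 80 with 1 plate or code left out (80 without either bone marrow code). The choice of like depth was added after seeing the data. In bone marrow against fetal liver (0) they were 1 with each plate as a library and 0 to 74 with 1 plate or code left out: 73 higher and 1 lower without bone marrow code 1, and 0 higher and 6 lower without code 2, where the median turned from 0.27 to -0.12. Relative to the sum (0 in each), each plate as a library gave 1, 4 and 7 calls for fetal liver against AGM, bone marrow against fetal liver and bone marrow against AGM, thinning gave 3 in the last, and leaving out a plate or code gave 0 to 4, 0 to 10 and 0 to 19. Rpl29 was among the calls of bone marrow against AGM with each plate as a library (-0.82, edgeR adjusted p = 0.00017). That fit takes plates of 1 origin code as separate libraries, so its p measures only the spread between plates. With 1 plate or code left out the log2 difference of Rpl29 was -0.90 to -0.70. Rps27l at the TMM scale turned from 0.12 to -0.021 in cells of 50000 to 100000 UMIs. The cause was not tested.

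With 1 AGM origin code and 2 of each other tissue, precision is set by the number of libraries, not by depth; a member had 122 to 329 UMIs per cell on average, by plate. Fewer cells of a type and less RNA per cell cannot be told apart in summed libraries.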
